A study of Homo sapiens with 8 samples.

Results

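The receptors for TRAIL (TNF-related apoptosis-inducing ligand) and the proteins that act directly beneath them were examined in SW1990 cells as 10 of the 38637 genes in the table of counts. They comprised the ligand TNFSF10 (TRAIL itself), the death receptors TNFRSF10A and TNFRSF10B, the decoy receptors TNFRSF10C and TNFRSF10D, the TNF receptor TNFRSF1A, the adaptor FADD, the inhibitor CFLAR and the initiator caspases CASP8 and CASP10. The members were taken by name, with earlier results of these data known. TNFRSF10C was selected on these libraries, as a gene that was higher in both experiments, so its values in those experiments are given as a description and without a test. SW1990, an established line of human pancreatic adenocarcinoma, was sequenced in 4 groups of 2 libraries each. Vector cells carried the empty vector, EBF2-OE cells overexpressed the transcription factor EBF2, Vehicle cells received the solvent, and GSK-LSD1 cells received GSK-LSD1, an inhibitor of the histone demethylase KDM1A, at a labelled dose of 2000 µM. Whether the EBF2-OE cells were a pool or a clone was not given in the sources used here. The Vector and EBF2-OE libraries were numbered 2 and 3, and those of Vehicle and GSK-LSD1 were 1 and 2. No source says of these libraries that those of a group came from separate cultures, and the study's general statement on independent experiments does not name them, so p-values measure the spread between libraries, which may be technical.

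Between 20453362 and 27054876 counts were assigned to genes per library. EBF2 had 28 counts in each Vector library, 5818 in EBF2-OE 2 and 90100 in EBF2-OE 3, so the overexpressing libraries differed widely from each other. The epithelial label was checked against its markers. KRT8, KRT18, KRT7 and MUC1 had median levels of 2540, 2250, 772 and 141 TPM (counts divided by gene length and rescaled to a fixed total per library). EPCAM, CDH1 and KRT19 were near 0, with 4 to 20, 7 to 57 and 0 to 21 counts per library. The T cell marker CD3E and the acinar enzymes PRSS1 and CELA3A had 0 counts in every library. Transcripts of other lists were present, with CD68 at 179 to 405 counts and the collagens COL1A1 and COL1A2 at 1419 to 2299 and 320 to 470 counts per library. Other genes of the same lists were lower. The leukocyte markers PTPRC and CD14 had 1 to 9 and 1 to 21 counts per library. The fibroblast markers LUM, DCN and COL3A1 had 3 to 10, 24 to 71 and 71 to 163.

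TRAIL binds as a trimer to TNFRSF10A and TNFRSF10B, whose cytoplasmic death domains recruit FADD. FADD in turn gathers CASP8 and CASP10 into a death-inducing complex, where they activate each other and start apoptosis, and CFLAR (c-FLIP) competes with the caspases for a place in it. TNFRSF10C, held in the membrane by a lipid anchor, and TNFRSF10D, with a truncated death domain, bind TRAIL without passing on the death signal. TNFRSF1A also has a death domain but mainly signals to NF-κB through TRADD. Pancreatic cancer cells are known to vary in their sensitivity to TRAIL.

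Upstream sequences are shown for the ligand, for the adaptor and for the apical caspase, where a motif search bore on the roles described below. They were taken from RefSeq (GRCh38.p14), which held a start site for 5 of the 6 members searched; the entry is missing for CASP10. Each window spans the 250 bases before the start site and is written 5′ to 3′ on the strand of the gene. Capitals mark the motif. In CASP8 (chr2:201233213-201233462, forward strand, the first of 3 listed start sites) it is CCCNNGGG, the core of the palindrome that EBF proteins bind, at -70 to -63 counted from the start site. In TNFSF10 (chr3:172523431-172523680, reverse strand) it is TATAA, the TATA box, at -31 to -27. In FADD (chr11:70203046-70203295, forward strand) it is GGGCGG, the GC box, which lies at -77 to -72 and, read on the opposite strand, at -209 to -204.
CASP8: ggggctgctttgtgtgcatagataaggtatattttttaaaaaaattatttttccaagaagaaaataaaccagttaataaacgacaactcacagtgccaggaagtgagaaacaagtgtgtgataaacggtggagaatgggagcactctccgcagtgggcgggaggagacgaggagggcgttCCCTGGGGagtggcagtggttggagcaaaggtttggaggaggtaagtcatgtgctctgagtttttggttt
TNFSF10: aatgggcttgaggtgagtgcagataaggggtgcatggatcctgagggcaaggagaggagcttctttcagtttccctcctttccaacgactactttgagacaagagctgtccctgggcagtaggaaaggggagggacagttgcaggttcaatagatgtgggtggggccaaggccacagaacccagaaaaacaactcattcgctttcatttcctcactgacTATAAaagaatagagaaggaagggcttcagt
FADD: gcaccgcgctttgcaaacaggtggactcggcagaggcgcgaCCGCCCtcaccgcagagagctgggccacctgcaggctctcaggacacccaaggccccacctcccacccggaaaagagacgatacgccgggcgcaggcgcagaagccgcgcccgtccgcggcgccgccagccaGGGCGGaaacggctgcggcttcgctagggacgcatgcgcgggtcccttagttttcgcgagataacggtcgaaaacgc

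The search covered 10 start-site windows of 5 members, CASP8, CFLAR, FADD, TNFSF10 and TNFRSF1A, some of which had more than 1 start site. The TRAIL receptors TNFRSF10A, TNFRSF10B, TNFRSF10C and TNFRSF10D were not searched, so the shares below do not describe them. The EBF core was present in 1 of the 10 member windows. It was present in 17.1% of 35116 RefSeq windows of the same length, searched on both strands. TATAA was present in 2 of 10 member windows and 18.9% of all windows, and GGGCGG in 4 of 10 and 42.6%. The AP-1 motif TGANTCA and the CCAAT box were each found in 2 of 10 member windows, against 6.57% and 32% of all windows. GGGCGG does not overlap the EBF core of CASP8, since it lies at -96 to -91 there. A match describes letters in a window and is not evidence of binding. The windows held 45.6% G and C in CASP8, 49.6% in TNFSF10 and 68.8% in FADD.

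The receptors and their machinery were expressed at very different levels, and the ligand was almost absent. In TPM over the 8 libraries, TNFRSF1A was the most abundant member (lowest 135, median 160, highest 185), followed by TNFRSF10B (67.6, 79.5 and 102) and FADD (54.4, 59.1 and 89.2). These ranges overlap between TNFRSF10B and FADD but not between TNFRSF1A and TNFRSF10B. TNFRSF10A (19.2, 26.2 and 39.5), TNFRSF10D (14.4, 20.9 and 33.9), TNFRSF10C (11.8, 18.9 and 29.6) and CASP8 (14.1, 16.5 and 19.4) formed a middle tier whose ranges all overlap. CFLAR (3.08, 3.38 and 3.77) and CASP10 (2.55, 3 and 3.37) were lowest among the members with steady expression, and their ranges overlap too. The TPM of CFLAR depends on its listed length of 23400 nt, the longest of the members, and its 559 to 909 counts per library exceeded those of CASP8 in all 8 libraries.

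**Figure D1:**
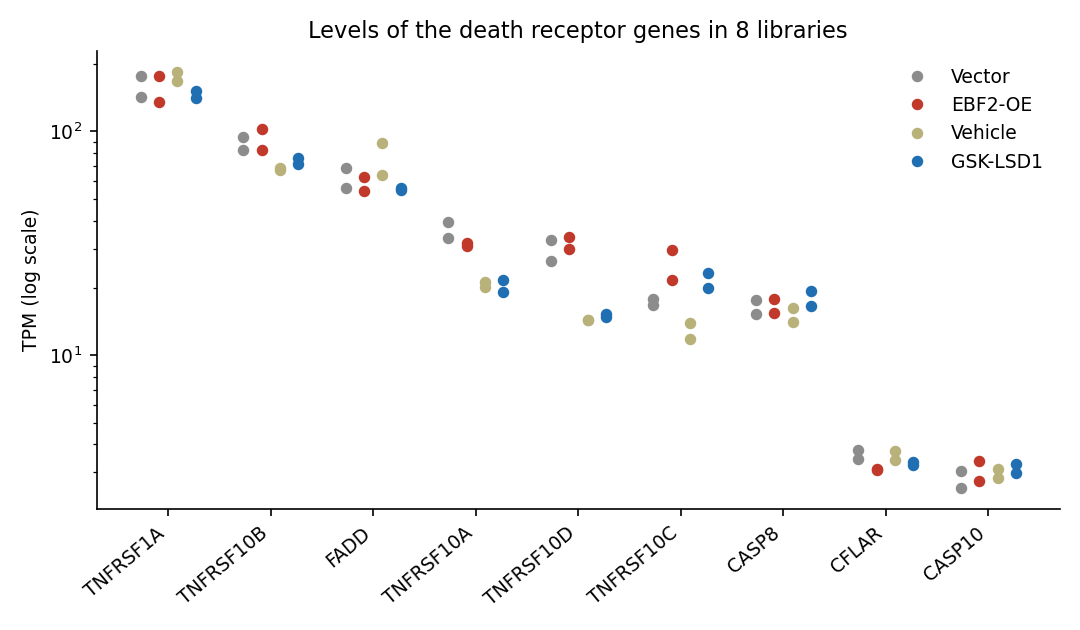
Level of each member in TPM on a log scale, with 1 point per library coloured by group and members ordered by their median. TNFRSF1A lies between 135 and 185 TPM and CASP10 between 2.55 and 3.37; TNFSF10, with 0 counts in 4 libraries, is not drawn.

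TNFSF10, on chromosome 3 of hg38 (172505508 to 172523430, reverse strand), was counted 0 times in both Vector and both EBF2-OE libraries. Vehicle 1 and Vehicle 2 had 9 and 6 counts, and GSK-LSD1 1 and GSK-LSD1 2 had 3 and 4. The ligand was therefore detected only in the 4 libraries of the inhibitor experiment, at levels that never exceeded 0.313 TPM. A count of 0 allows up to 0.125 to 0.147 CPM (counts relative to the library total, here the raw total) in the other libraries, taking 3 counts per library as the limit. Against the same 3 counts in each Vector library, the 15 counts of the Vehicle libraries were at least 2.16-fold higher, with the counting error of the 15 left out. The GSK-LSD1 libraries had 7 counts against 15 in Vehicle, a ratio of 0.533 with an exact 95% interval of 0.184 to 1.39 that covers counting error only. The gene passed the low-count filter in no comparison, so the counts below leave it out.

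EBF2-OE was compared with Vector to ask which transcripts followed EBF2. A gene was counted as called where its fold change exceeded 1.5 and its adjusted p-value (Benjamini-Hochberg, edgeR's quasi-likelihood test) was under 0.05. By this rule 0 of the 8 members other than TNFRSF10C passed, as did 0 of all 15560 genes (0%). EBF2 itself, with a log2 fold change of 10.75 (SE, standard error, 1.55), was not called either. The count of 0 therefore does not show that the members were unchanged. With an unadjusted p-value under 0.05 in place of the adjusted one, 148 genes and 0 of these 8 members passed, and DESeq2 called 7 genes and 0 members. The median log2 fold change was 0.02 over the 8 members and 0.00 over all genes tested. Both libraries of a group lay beyond both of the other in 2 of the 8 (TNFRSF10A and CFLAR, lower), a share near the 22.9% of all genes. The values below are TMM-normalized CPM of these 4 libraries.

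TNFRSF10C, the lipid-anchored decoy, lies on chromosome 8 of hg38 (23102921 to 23117445, forward strand). It had 9.08 and 8.86 CPM in Vector 2 and 3 and 11.4 and 15.8 CPM in EBF2-OE 2 and 3. Both EBF2-OE libraries were above both Vector libraries, and EBF2-OE 3, the library with more EBF2 counts, was the higher. This is a log2 fold change of 0.60 (SE 0.223). It was 0.35 without EBF2-OE 3 and 0.81 without EBF2-OE 2, so the value rests largely on EBF2-OE 3. TNFRSF10D, the other decoy, is encoded at 23135588 to 23164027 on the reverse strand. Its levels of 42.2 and 35.5 CPM in Vector and 39.6 and 45.7 CPM in EBF2-OE overlapped, with a log2 fold change of 0.14 (SE 0.153).

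The death receptors differed little between these groups. TNFRSF10A (23190452 to 23225102, reverse strand) had 38.8 and 33.9 CPM in Vector and 32.3 and 31.7 CPM in EBF2-OE. The EBF2-OE libraries were both slightly lower, with a log2 fold change of -0.18 (SE 0.14). TNFRSF10B (23020133 to 23069031, reverse strand) had 138 and 125 CPM in Vector and 125 and 155 CPM in EBF2-OE, and these groups overlapped, with a log2 fold change of 0.09 (SE 0.151). For TNFRSF1A the values were 148 and 123 CPM in Vector and 152 and 118 CPM in EBF2-OE, so the libraries numbered 2 were higher than those numbered 3 in both groups.

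Downstream of the receptors, FADD had 43 and 36.1 CPM in Vector and 40.2 and 35.5 CPM in EBF2-OE, with a log2 fold change of -0.06 (SE 0.152). The competitor CFLAR had 29.4 and 33.4 CPM in Vector and 27.4 and 27.6 CPM in EBF2-OE, and its log2 fold change was -0.19 (SE 0.144). The EBF2-OE levels of CFLAR were nearly identical to each other and below both Vector libraries. CASP8, which holds the EBF core shown above only in the window of its first listed start site, had 23.4 and 21 CPM in Vector. It had 24.5 and 21.4 CPM in EBF2-OE. Its log2 fold change was 0.05 (SE 0.162), and that of CASP10 was 0.16 (SE 0.224). Apart from TNFRSF10C, whose p-value is not used, every member tested had an adjusted p-value of 1 by edgeR, with SEs of 0.14 to 0.224.

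**Figure D2:**
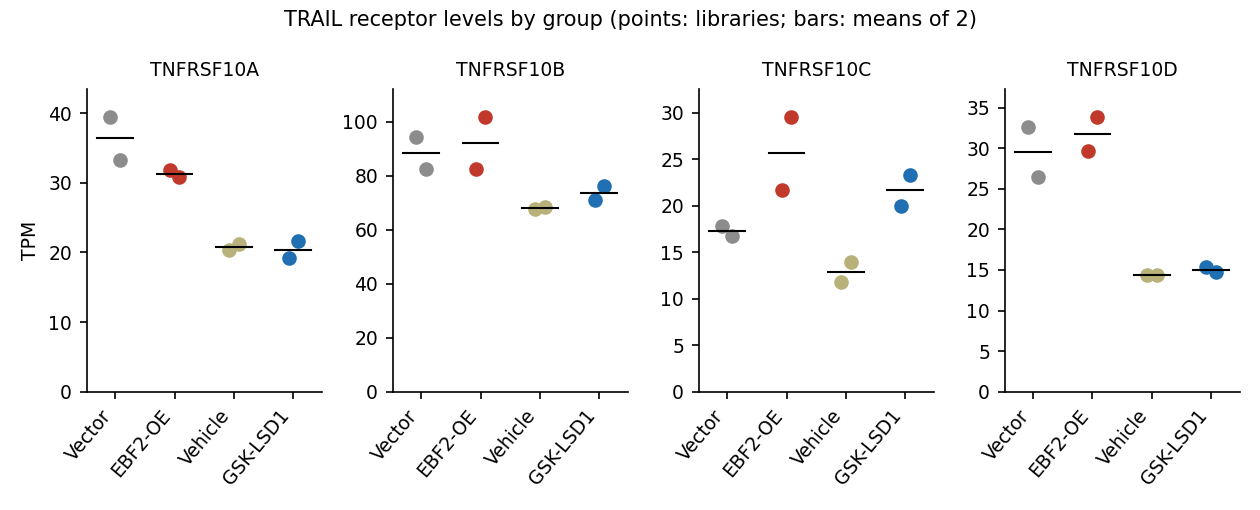
Levels of the death receptors TNFRSF10A and TNFRSF10B and the decoy receptors TNFRSF10C and TNFRSF10D in TPM by group, with 1 point per library and bars at the mean of 2 libraries. TNFRSF10C lies between 20 and 29.6 TPM in EBF2-OE and GSK-LSD1 libraries and between 11.8 and 17.8 TPM in Vector and Vehicle; TNFRSF10D lies between 26.5 and 33.9 TPM in Vector and EBF2-OE and between 14.4 and 15.3 TPM in Vehicle and GSK-LSD1.

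GSK-LSD1 was compared with Vehicle to ask which transcripts followed inhibition of KDM1A, whose own log2 fold change was -0.22 (adjusted p = 0.0403 by edgeR). Of the 8 members other than TNFRSF10C, 0 were called by edgeR or by DESeq2, against 4.57% of all 16059 genes in edgeR. By edgeR, 4 of them had an unadjusted p-value under 0.05, a share that was not counted over all genes. TNFRSF10C passed the limits, but it was chosen for this difference and nothing is read from that. At an adjusted p-value under 0.05 and any fold there were 2 of the 8 (FADD and TNFRSF1A), against 18.7% of all genes, and both lost it in 1 fit over all 8 libraries. The groups did not overlap in 6 of the 8, against 60.2% of all genes. The median log2 fold change was 0.05 over the 8 members and -0.01 over all genes tested.

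TNFRSF10C had 6.40 and 7.40 CPM in Vehicle 1 and 2 and 11.1 and 12.6 CPM in GSK-LSD1 1 and 2. The GSK-LSD1 libraries were both above both Vehicle libraries. The log2 fold change was 0.78 (SE 0.129), and it lay between 0.69 and 0.89 when each library was left out in turn. TNFRSF10D had 19.8 and 19.4 CPM in Vehicle and 21.5 and 20.4 CPM in GSK-LSD1. Its log2 fold change was 0.10 (SE 0.089, adjusted p = 0.502). The decoy receptors thus had unlike values in the same libraries.

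TNFRSF10A was nearly level, at 21.3 and 21.7 CPM in Vehicle and 20.7 and 22.6 CPM in GSK-LSD1, with a log2 fold change of 0.01 (SE 0.0896, adjusted p = 0.952). TNFRSF10B had 105 and 104 CPM in Vehicle and 114 and 119 CPM in GSK-LSD1. Both GSK-LSD1 libraries were higher, by a log2 fold change of 0.15 (SE 0.0519), but the adjusted p-value of 0.0675 missed the threshold. TNFRSF1A (chromosome 12, 6328771 to 6342076, reverse strand) had 165 and 146 CPM in Vehicle and 129 and 136 CPM in GSK-LSD1. The GSK-LSD1 libraries were both lower, with a log2 fold change of -0.23 (SE 0.0631, adjusted p = 0.0262), which is below the fold limit. Its adjusted p-value was 0.543 in 1 fit over all 8 libraries, 0.133 without Vehicle 1, 0.201 without GSK-LSD1 1 and 0.089 without GSK-LSD1 2.

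FADD (chromosome 11, 70203296 to 70207390, forward strand) had 59.3 and 41.4 CPM in Vehicle and 37.3 and 37.1 CPM in GSK-LSD1. Vehicle 1 stood well above the other 3 libraries, which lay close together. The log2 fold change was -0.43 (SE 0.132, adjusted p = 0.0432). It was -0.15 without Vehicle 1 (adjusted p = 0.3) and -0.67 without Vehicle 2 (adjusted p = 4.3e-14), so Vehicle 1 decides its size. The adjusted p-value was 0.32 by DESeq2, 0.331 in 1 fit over all 8 libraries and 0.209 without either GSK-LSD1 library.

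CASP8 (chromosome 2, 201233443 to 201287711, forward strand) had 19.9 and 22.6 CPM in Vehicle and 28.1 and 23.4 CPM in GSK-LSD1. The groups did not overlap, yet GSK-LSD1 2 lay close to Vehicle 2, and the log2 fold change of 0.28 (SE 0.107) had an adjusted p-value of 0.0987. CASP10, next to it at 201182885 to 201229406, had 7.53 and 8.09 CPM in Vehicle and 8.14 and 8.74 CPM in GSK-LSD1 (log2 fold change 0.11, SE 0.123, adjusted p = 0.584). CFLAR, the third gene of this cluster at 201116164 to 201176687, had 31.1 and 33.3 CPM in Vehicle and 31.3 and 29.5 CPM in GSK-LSD1. The groups overlapped, with a log2 fold change of -0.09 (SE 0.0767, adjusted p = 0.485).

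**Figure D3:**
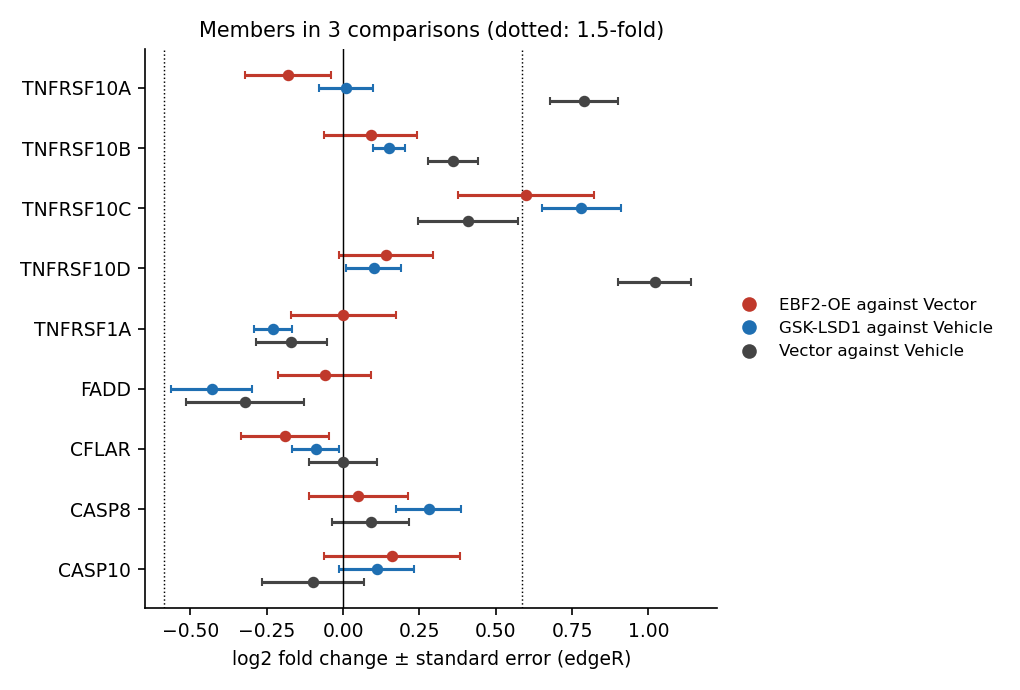
Log2 fold change with its standard error for the 9 tested members in EBF2-OE against Vector, GSK-LSD1 against Vehicle and Vector against Vehicle, with dotted lines at 1.5-fold. TNFRSF10C lies at 0.60, 0.78 and 0.41, and TNFRSF10A and TNFRSF10D lie near 0 in the experiments but at 0.79 and 1.02 between the controls.

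The largest differences of TRAIL receptors lay between the control groups, a contrast that the selection of TNFRSF10C did not use. Vector and Vehicle cells differ in vector, solvent and possibly in batch and passage, and these cannot be told apart. TNFRSF10D had 42.7 and 36.1 CPM in Vector and 19.7 and 19.2 CPM in Vehicle. Its log2 fold change was 1.02 (SE 0.121, adjusted p = 0.00904 by edgeR), and both Vector libraries were higher. TNFRSF10A had 39.3 and 34.4 CPM in Vector and 21.2 and 21.5 CPM in Vehicle, a log2 fold change of 0.79 (SE 0.112, adjusted p = 0.0115). These were the 2 of 9 members called, against 16.0% of 16019 genes, a decoy and a death receptor that were both higher in Vector. The adjusted p-values of TNFRSF10D and TNFRSF10A were 0.0941 and 0.126 without Vehicle 1 and 0.0752 and 0.101 without Vehicle 2, where the fold changes were 1.03 and 0.77, and 1.00 and 0.80, on the log2 scale. In those fits the number of genes called over the whole table fell from 2558 to 12 and to 235.

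TNFRSF10B had 140 and 127 CPM in Vector and 105 and 103 CPM in Vehicle, with a log2 fold change of 0.36 (SE 0.0821, adjusted p = 0.0304), which is below the fold limit. At this p-value and any fold there were 3 members, against 26.8% of all genes. TNFRSF10C had 9.20 and 9 CPM in Vector and 6.36 and 7.35 CPM in Vehicle (log2 fold change 0.41, SE 0.163, adjusted p = 0.114). All 4 TRAIL receptors had both Vector libraries above both Vehicle libraries, and they were the 4 of 9 members whose groups did not overlap, against 70.9% of all genes. The 5 other members had log2 fold changes of -0.32 (FADD) to 0.09 (CASP8), with adjusted p-values of 0.258 or more. The member median was 0.09 and that of all genes 0.00.

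With the treated cells added, the receptors other than TNFRSF10C still lay apart between the experiments. The share of all genes that do so was not counted, and 70.9% did not overlap in CPM between the controls alone. In TPM, TNFRSF10A was 30.8 to 39.5 in the 4 Vector and EBF2-OE libraries and 19.2 to 21.6 in the 4 Vehicle and GSK-LSD1 libraries. TNFRSF10D was 26.5 to 33.9 and 14.4 to 15.3, and TNFRSF10B was 82.6 to 102 and 67.6 to 76.4. TNFRSF10C was 16.8 to 29.6 and 11.8 to 23.3. These ranges overlapped through the GSK-LSD1 libraries (20 and 23.3), in which the gene was selected as higher. Its control libraries did not overlap, at 17.8 and 16.8 in Vector and 11.8 and 13.9 in Vehicle. Marker genes of other cell types also differed between the controls. The summed TPM of 3 endothelial markers was 0.717 to 0.798 in Vector and 4.88 to 5.02 in Vehicle, most of it CDH5, with VWF at no more than 0.501 TPM. That of 4 leukocyte markers, mostly CD68, was 22.9 to 27.1 in Vector and 11.8 to 14.6 in Vehicle. Of these, CD3E was at 0 and PTPRC at no more than 0.122 TPM in any library. The sum of 7 epithelial markers was 4620 to 4950 in Vector and 7120 to 7230 in Vehicle. The part of these markers in the receptor differences was not tested. In bulk RNA, fewer expressing cells and less RNA per cell cannot be told apart.

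Whether the members responded differently to EBF2 and to GSK-LSD1 was tested as the difference of the effects in 1 fit over all 8 libraries. Of the 8 members other than TNFRSF10C, 0 were called, as were 0 of all 16558 genes (0%). By unadjusted p-values and the fold limit 718 genes and 0 members passed in edgeR, and DESeq2 called 94 genes and 0 members. FADD had the widest difference, 0.36 on the log2 scale (EBF2 effect minus GSK-LSD1 effect, SE 0.241, adjusted p = 0.781). CASP8 followed at -0.24 (SE 0.196, adjusted p = 0.828). For TNFRSF10C the difference was -0.19 (SE 0.259), given without a test. The median was -0.02 over the 8 members and 0.00 over all genes.

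The balance of decoy to death receptors was described as (TNFRSF10C + TNFRSF10D) over (TNFRSF10A + TNFRSF10B) in TPM. The ratio was 0.377 and 0.374 in Vector and 0.449 and 0.479 in EBF2-OE. It was 0.298 and 0.316 in Vehicle and 0.390 and 0.389 in GSK-LSD1. Death receptor transcripts outnumbered decoy transcripts in all 8 libraries. The ratio was higher in the treated libraries of both experiments, but it contains TNFRSF10C, so this carries no test. A ratio without that gene was taken from TNFRSF10D and TNFRSF10A alone. It also leaves out TNFRSF10B, which had 2.39 (Vector 2) to 3.7 (GSK-LSD1 1) times the TPM of TNFRSF10A. It therefore does not describe the whole balance. The ratio of TNFRSF10D to TNFRSF10A was 0.826 and 0.797 in Vector, 0.933 and 1.1 in EBF2-OE, 0.709 and 0.680 in Vehicle, and 0.793 and 0.685 in GSK-LSD1. It was higher in both EBF2-OE libraries than in both Vector libraries, and GSK-LSD1 2 lay between the Vehicle libraries.

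Within the caspase complex, the ratio of CFLAR to CASP8 in TPM was 0.195 and 0.247 in Vector and 0.173 and 0.200 in EBF2-OE, which overlap. It was 0.243 and 0.229 in Vehicle and 0.173 and 0.195 in GSK-LSD1, which do not. All of these ratios depend on the listed gene lengths.

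A list of 45 further genes of death receptor signaling, grouped by role, gave the surroundings of these members. The list was chosen with earlier results of these data known, so its counts beside the share of all genes are a description. In EBF2-OE against Vector, 36 of the 45 were tested, 0 were called (0% of all genes), and the list median was -0.06 on the log2 scale. By edgeR, 3 had an unadjusted p-value under 0.05, a share that was not counted over all genes. The largest values belonged to receptors. TNFRSF25 (DR3), a death receptor for TNFSF15, had 0.565 and 0.63 CPM in Vector and 1.18 and 2.05 CPM in EBF2-OE (log2 fold change 1.43, SE 0.485, adjusted p = 1). TNFRSF1B, the TNF receptor without a death domain, had a log2 fold change of 0.74 (SE 0.297, adjusted p = 1). For the adaptor TRAF1 it was -0.69 (SE 0.522, adjusted p = 1), but 0.07 without Vector 2 and -1.19 without Vector 3. DDIT3, the third gene with an unadjusted p-value under 0.05, was at -0.53 (SE 0.189, adjusted p = 1).

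In GSK-LSD1 against Vehicle, 37 were tested, and 2 rose and 2 fell, against 4.57% of all genes called. The list median was 0.01. BIRC3 (cIAP2), a ubiquitin ligase that restrains death signaling, rose from 5.22 and 5.79 CPM to 14.1 and 14 CPM (log2 fold change 1.35, SE 0.119, adjusted p = 5.07e-05). DDIT3 (CHOP), a stress transcription factor known to act on TNFRSF10B, rose from 6.68 and 7.40 CPM to 12 and 12.6 CPM (0.81, SE 0.118, adjusted p = 0.00117). Both had the treated libraries close to each other and well above Vehicle. TNFSF15 (TL1A), the ligand of TNFRSF25, fell from 5.79 and 4.91 CPM to 1.31 and 2.44 CPM (-1.51, SE 0.245, adjusted p = 0.0021). EDAR, a death-domain receptor of skin appendages, fell from 2.23 and 2.34 CPM to 1.36 and 0.976 CPM (-0.97, SE 0.258, adjusted p = 0.0255). It was not called by DESeq2 (adjusted p = 0.198), without GSK-LSD1 1 (0.0686) or without GSK-LSD1 2 (0.173). In 1 fit over all 8 libraries, the adjusted p-values of BIRC3, DDIT3, TNFSF15 and EDAR were 0.0601, 0.066, 0.379 and 0.296. GALNT3, which adds sugars to proteins, had a log2 fold change of 1.5 at under 1 CPM and was not called (adjusted p = 0.068).

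By role, the 4 calls fell in the other receptors (1 of 7 tested), the other ligands (1 of 1), the adaptors and ubiquitin regulators (1 of 13) and the regulators of the TRAIL receptors (1 of 3). The executioner and mitochondrial arm had 0 of 12 called, and MLKL, the pore-forming protein of necroptosis, had a log2 fold change of 0.05. CYCS (cytochrome c) had 97.6 and 94.5 CPM in Vehicle and 145 and 138 CPM in GSK-LSD1, a log2 fold change of 0.56 that was just under the fold limit (adjusted p = 7.12e-05). Among the adaptors, TRADD was lower at -0.53 (SE 0.122, adjusted p = 0.0131 by edgeR), also under the fold limit. TRAF1 was at 1.16 (SE 0.382, adjusted p = 0.0583 by edgeR) and was not called.

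Between Vector and Vehicle, 36 were tested, and 4 were higher and 4 lower in Vector, against 16.0% of all genes called. The list median was 0.11. TRAF1 (log2 fold change 2.0, adjusted p = 0.0459), DDIT3 (1.83, adjusted p = 0.00577), CYCS (0.84, adjusted p = 0.00738) and MLKL (0.72, adjusted p = 0.0143) were higher. TNFSF15 (-3.27, adjusted p = 0.0172), EDAR (-2.18, adjusted p = 0.0111), TNFRSF25 (-1.98, adjusted p = 0.012) and the TNFRSF1A adaptor TRADD (-1.33, adjusted p = 0.0124) were lower. The control groups thus differed in both TNFSF15 and its receptor. Without Vehicle 1, 0 of these 8 were called, and without Vehicle 2 there were 2 (DDIT3 and TRADD). Without Vector 2, TRAF1 was at 1.26 and not called (adjusted p = 0.0627), and TNFSF15 was at -4.91, against -2.47 without Vector 3. In the difference of the effects, 0 of 37 were called by edgeR. An unadjusted p-value under 0.05 was found for 8, a share that was not counted over all genes. The widest difference was that of TRAF1 (-1.85, SE 0.671, adjusted p = 0.568). For BIRC3 it was -1.67 (SE 0.358, adjusted p = 0.237) and for DDIT3 -1.35 (SE 0.218, adjusted p = 0.105). Both calls depend on the fit. DESeq2 called BIRC3 (adjusted p = 0.0091) and DDIT3 (adjusted p = 0.00148), as did edgeR with no low-count filter (1.32e-05 and 3.49e-05), and with a replicate block the values were 0.0442 and 0.0503.

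**Figure D4:**
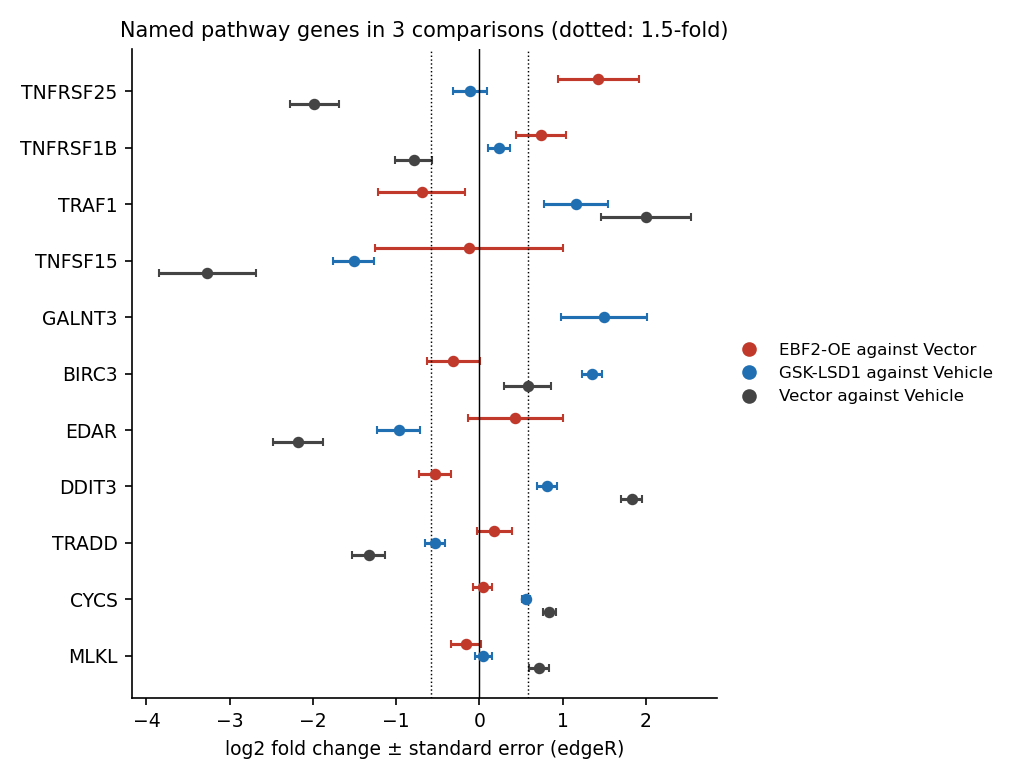
Log2 fold change with its standard error for the named genes of the pathway list in the 3 comparisons, with dotted lines at 1.5-fold. BIRC3 lies at 1.35 and TNFSF15 at -1.51 in GSK-LSD1 against Vehicle, and TNFSF15 reaches -3.27 between the controls.

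The genes whose pattern over the 8 libraries was most like that of TNFRSF10C were sought among 16549 genes by the Euclidean distance between log2 CPM values, each centred on its own mean. The nearest were ELAPOR1 (distance 0.401), IGSF8 (0.480) and ACLY, the ATP-citrate lyase (0.501). TNFRSF10B was the nearest member, at 0.837. TNFRSF10C ranged from 6.33 CPM in Vehicle 1 to 15.8 in EBF2-OE 3 on the scale of all 8 libraries, and ELAPOR1 ranged from 10.4 to 21 in the same libraries. All points share these 8 libraries, so the likeness is a description.

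Reads of the TRAIL receptors can in principle be shared, because the genes lie side by side and are alike. Between TNFRSF10A, TNFRSF10B, TNFRSF10C and TNFRSF10D, 0 stretches of 50 bases were shared exactly among annotated transcripts (GENCODE v44). TNFRSF10C overlaps LOC254896 on the same strand over 638 nt, and TNFRSF10B overlaps RHOBTB2 over 67 nt and LOC286059 over 803 nt on the opposite strand. LOC254896 had 42 to 72 counts per library, beside 158 to 354 for TNFRSF10C. TNFRSF10C and LOC254896 share a strand, so strand cannot assign the reads in their overlap. For the overlaps on opposite strands, the strand setting of the counting was not given in the sources used here. How reads there were assigned is therefore not known.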

How the data were processed

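Poly(A)-selected RNA of SW1990 cells was sequenced with paired ends of 150 bases. Per the paper, the authors used HISAT2 with default parameters (hg38) and counted reads per gene with HTSeq; versions, annotation and strand setting were not given in the sources used here. The deposited table holds raw counts and TPM for 38637 genes, and the deposited TPM was checked to equal count over listed length, rescaled to 1000000 per library.

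Tests started from the counts, with edgeR 4.0.16 in R 4.3.3: TMM normalization, filterByExpr with a minimum count of 10, the quasi-likelihood test, and Benjamini-Hochberg adjustment across every gene that passed the filter. Calls required more than 1.5-fold change with an adjusted p-value under 0.05 (two-sided). Standard errors were taken from the F statistic. EBF2-OE against Vector, GSK-LSD1 against Vehicle and Vector against Vehicle were each fitted on their own 4 libraries, and the difference of the effects on all 8. Libraries held 20453362 to 27054876 counts. The libraries of each group differed by more than counting error (chi-square per degree of freedom 5.34 to 32.9) and were kept separate. Alternatives were DESeq2 1.42.0, DESeq2's size factors in edgeR, no low-count filter, 1 fit over all 8 libraries, the replicate number as a block and leaving out each library. The steps were tested on simulated data.

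The members, the pathway list and the motifs were chosen with earlier results of these data known. Named were all members, every pathway gene called in any comparison and the 3 tested pathway genes with the largest absolute log2 fold change in each comparison. CYCS, TRADD and TRAF1 in GSK-LSD1 against Vehicle, and DDIT3 in EBF2-OE against Vector, were described after their values were seen. The TNFRSF10C likeness names the 3 nearest genes. Upstream windows come from RefSeq.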

Additional observations from a re-analysis of the deposited data

How the results depend on the processing

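With 2 libraries per group, the spread between libraries limits every test, and leaving a library out assumes that the lone library varies like the other group. Members called numbered 0 in EBF2-OE against Vector and 0 in the difference of the effects under every alternative run. TNFRSF10C was chosen for its difference in GSK-LSD1 against Vehicle, so its calls there are left out. FADD lay at -0.67 on the log2 scale there without Vehicle 2, beyond the fold limit. In GSK-LSD1 against Vehicle the number among the 8 other members was 0 under every alternative that kept all libraries. In Vector against Vehicle it was 2, 3 with no low-count filter, where TNFSF10 was added, and 0 to 2 leaving out each library. Over all genes, EBF2-OE against Vector went from 0 called to 7 by DESeq2, 74 with no low-count filter, 2 in 1 fit over all 8 libraries and 1 to 3 leaving out each library. GSK-LSD1 against Vehicle went from 734 to 470 by DESeq2, 100 in 1 fit over all 8 libraries and 439 to 1007 leaving out each library. Vector against Vehicle went from 2558 to between 12 and 4259 leaving out each library, with the extremes without Vehicle 1 and without Vector 2. The difference of the effects went from 0 to 94 by DESeq2, 369 with no low-count filter and 0 to 71 leaving out each library, with the most without EBF2-OE 2. The causes of these shifts were not tested.

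A replicate block gave 5 genes called in EBF2-OE against Vector, 763 in GSK-LSD1 against Vehicle and 34 in the difference of the effects, and changed no call of a member. Deviations of same-numbered libraries correlated at 0.35 in the EBF2 experiment and -0.014 in the inhibitor experiment, with 2 pairs each. In the EBF2 experiment they thus partly deviated together. What the numbers stand for was not given, so the main fits did not take them as pairs. Any shift shared by same-numbered libraries therefore stays in the spread of the main fits. No paired analysis was possible for Vector against Vehicle because these groups share only the number 2. Leaving out each library turned the direction of some small log2 fold changes: in EBF2-OE against Vector, FADD (-0.18 to 0.07), TNFRSF1A (-0.20 to 0.17), CASP8 (-0.06 to 0.15) and TNFRSF10B (-0.07 to 0.24), in GSK-LSD1 against Vehicle, TNFRSF10A (-0.05 to 0.08), in Vector against Vehicle, CFLAR (-0.10 to 0.09), and in the difference of the effects, TNFRSF10B (-0.22 to 0.07), CASP10 (-0.11 to 0.19), TNFRSF10D (-0.08 to 0.18) and TNFRSF10C (-0.43 to 0.01). None of these was called. With no low-count filter in edgeR, TNFSF10 had an adjusted p-value of 0.607 in GSK-LSD1 against Vehicle and 0.0246 in Vector against Vehicle, and DESeq2 gave it none. Of the pathway genes named in EBF2-OE against Vector, TRAF1 also changed direction.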

Other observations

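Some genes of the pathway list differed between the libraries numbered 2 and 3 in the same direction in Vector and in EBF2-OE, which the comparisons of groups do not show; they were chosen after their values were seen. TNFAIP3 (A20), a deubiquitinase that dampens signaling from TNFRSF1A, was 3.39-fold higher in Vector 3 than in Vector 2 and 4.59-fold higher in EBF2-OE 3 than in EBF2-OE 2. FAS, the death receptor for FASLG, was 1.78-fold and 1.60-fold higher in the libraries numbered 3. TNFSF15 was lower in them, at 0.179 and 0.0958 of its level in the libraries numbered 2. These were the 3 of 36 pathway genes that differed by more than 1.5-fold in the same direction in both groups, against 6.57% of all 15560 genes and 0 of 9 members. In the inhibitor experiment, 0 of 37 pathway genes and 0 of 9 members did so, against 1.05% of all genes.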
